A study of Mus musculus with 10 samples.

Results

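Toll-like receptors are sentinels of innate immunity that recognise microbial lipids, proteins and nucleic acids and some molecules released by injured cells. Some sit at the cell surface and others in endosomes, and each hands its signal to a cytoplasmic adaptor through a shared TIR domain. In the central nervous system they are best known from microglia, the resident macrophages, and astrocytes also carry *Tlr3*. The 10 genes described here are 8 of these receptors, the surface receptors *Tlr1*, *Tlr2*, *Tlr4* and *Tlr6* and the endosomal receptors *Tlr3*, *Tlr7*, *Tlr9* and *Tlr13*, together with the co-receptor gene *Cd14* and the adaptor gene *Myd88*. They were taken by gene symbol from the 25232 genes listed, and all 10 were listed with a level above 0.

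RNA was sequenced from the spinal cord (the lumbar region, by the study's methods) of 5 SOD1 G93A and 5 wild type (WT) female mice on a C57BL/6 background at 90 days of age, an early symptomatic stage of this model of amyotrophic lateral sclerosis. The SOD1 G93A strain carries many copies of a mutant human *SOD1* transgene, so its RNA reports on transgene overexpression as well as on the mutation, and the WT mice were littermates without it. The level of each gene was available as a single mean over all 10 libraries, in which both genotypes were averaged together. Each level below is therefore one of mixed SOD1 G93A and WT tissue, the contrast between the genotypes was not analysed here, and the spread between mice is unknown. Whole tissue was sequenced, so a low level from few cells and one from little RNA per cell cannot be told apart.

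The levels are read counts that the authors divided by a factor for the depth of each library before averaging (normalised reads). Summed over all genes they came to 22158933. The depth factors of the 10 libraries, read from the lowest values of the table, lay between 0.840 and 1.15, a range of 1.37-fold. Dissected spinal cord was recognisable by its markers, with all 6 neuronal, 5 oligodendrocyte, 5 astrocyte, 8 microglial and 3 endothelial marker genes above the median gene per kilobase of exon. Of the 8 microglial markers, 6 were above it with coding length in place of exon length and 7 without scaling by length. Of the marker genes of cells from outside the cord, the 2 of Schwann cells, which myelinate peripheral nerve, had a median of 445 normalised reads per kilobase, the 2 of skeletal muscle one of 100.2 and the 4 of neutrophils one of 27.2. T cell and B cell markers had medians of 0.658 and 2.56. Of the 3 red blood cell markers, *Alas2* was above 0 (57.1) and *Hba-a1* and *Hbb-bs* were listed at 0. The globin genes *Hba-a2* and *Hbb-bt* were at 0 too. Only uniquely mapped reads were counted, and whether the globin values at 0 reflect absent RNA was not tested.

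*Tlr1* and *Tlr6* lie side by side on the minus strand of chromosome 5 (GRCm38), with 18467 bases and no other annotated gene between them. *Tlr1* (ENSMUSG00000044827.10) runs from 64924679 to 64933563 and *Tlr6* (ENSMUSG00000051498.6) from 64952031 to 64960097. Both encode partners of Tlr2, and their coding sequences were the most alike of the 28 pairs among the 8 receptors. In a global alignment they were identical in 74.9% of columns, and the other 27 pairs in 50.1% to 54.8%. The identity that unrelated sequences reach in such an alignment was not measured. The likeness of *Tlr1* and *Tlr6* was uneven along the gene. Between bases 1301 and 2200 of the *Tlr1* coding sequence, counted from the first base of the start codon, 890 of 900 bases were identical in *Tlr6*, against 66.5% of the other 1485 bases. These bounds are those of the longest run of 100-base windows with at least 95% identity in this alignment. The contrast with the other bases is therefore partly set by that choice. The longest stretch without a difference was 229 bases long, at bases 1468 to 1696 of *Tlr1* and 1507 to 1735 of *Tlr6*, in coding exons at chr5:64925537-64925765 and chr5:64953828-64954056. It is shown because a read that lies wholly inside it cannot by itself be given to one gene.
Tlr1 and Tlr6, shared stretch: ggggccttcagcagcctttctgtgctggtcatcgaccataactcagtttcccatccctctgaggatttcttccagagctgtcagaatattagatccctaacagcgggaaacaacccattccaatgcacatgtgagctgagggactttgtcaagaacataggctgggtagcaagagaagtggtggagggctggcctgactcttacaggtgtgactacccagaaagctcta

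The next 40 coding bases of both genes, 5′ to 3′ on the minus strand, follow at chr5:64925497-64925536 for *Tlr1* and chr5:64953788-64953827 for *Tlr6*. Capitals mark the 2 bases that differ and that would tell a read of one gene from a read of the other.
Tlr1: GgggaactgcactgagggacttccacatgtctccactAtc
Tlr6: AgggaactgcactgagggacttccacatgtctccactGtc

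**Figure D1:**
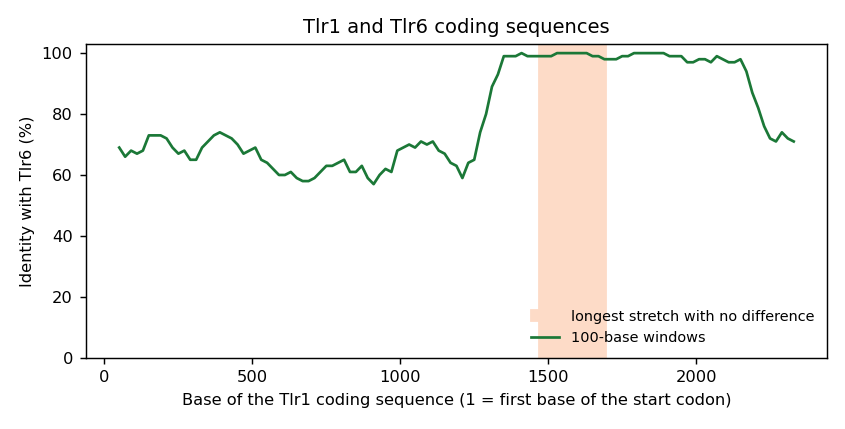
Identity of the Tlr1 and Tlr6 coding sequences in windows of 100 bases (vertical axis, percent) along the Tlr1 coding sequence (horizontal axis, bases). The curve is at 97% or more in windows centred from base 1350 to base 2150 and at 94% or less elsewhere, and the shaded band is the stretch of 229 bases without a difference.

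The authors counted uniquely mapped reads, and libraries were read 100 bases from each end. Of the 100-base windows of the annotated transcript, 8.85% of those of *Tlr1* and 7.24% of those of *Tlr6* occurred unchanged in the other gene. These shares are of single reads. The read from the other end of a fragment, which may reach a differing base, was not considered. No window of *Tlr2*, *Tlr4*, *Tlr7*, *Tlr9*, *Tlr13* or *Cd14* occurred in a transcript of another gene on either strand. Of those of *Myd88*, 6.72% occurred in *Acaa1a*, and 0.418% of those of *Tlr3* in the gene model Gm45542. *Acaa1a* and Gm45542 overlap these members on the opposite strand, over 290 and 381 exon bases. Sharing of that kind is of the same genomic bases, unlike the separate copies in *Tlr1* and *Tlr6*. Outside the pair *Tlr1* and *Tlr6*, the longest run of bases that any 2 receptors shared in their coding sequences was 16.

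Among the surface receptors, *Tlr2*, which recognises bacterial lipoproteins, had the highest level. *Tlr2* (ENSMUSG00000027995.10, chr3:83836272-83841767, minus strand) had a mean of 141 normalised reads, from about 1419 reads in all libraries together. Scaled by the 3014 bases of its exons this was 46.8 normalised reads per kilobase, with a 95% counting interval of 44.4 to 49.3. That interval, like all those given here, is a Poisson interval that covers counting error only and not the spread between mice. *Tlr2* lay at percentile 45.0 of the 20399 genes that were above 0 and had an annotated length, at 0.738 times the median gene (63.4 per kilobase).

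Its partners were far lower. *Tlr1*, which pairs with Tlr2 on triacylated lipoproteins, had a mean of 25.1 normalised reads and 7.51 per kilobase (95% counting interval 6.61 to 8.50). *Tlr6*, which pairs with Tlr2 on diacylated lipoproteins, had a mean of 12.2, and 3.27 per kilobase (2.71 to 3.90), the lowest of the 10 genes. Per kilobase, *Tlr2* was 6.23 times *Tlr1* (95% counting interval 5.43 to 7.14) and 14.3 times *Tlr6* (11.9 to 17.4). *Tlr1* was 2.30 times *Tlr6* (1.85 to 2.89). With the windows that both genes share left out of their lengths, an alternative chosen after seeing the data, that ratio was 2.34.

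*Tlr4*, the receptor for bacterial lipopolysaccharide, lies on the plus strand of chromosome 4 (ENSMUSG00000039005.13, chr4:66827584-66930284). Its mean was 53.8 normalised reads, more than that of *Tlr1*, and its 9.67 per kilobase (8.87 to 10.5) put it at percentile 28.1. *Cd14* (ENSMUSG00000051439.7, minus strand of chromosome 18, 36725067 to 36726798), whose product loads lipopolysaccharide onto the Tlr4 complex and also serves other receptors, had a mean of 88.1 over an exon length of 1732 bases. At 50.9 per kilobase (47.6 to 54.3) it was 5.26 times *Tlr4* (4.72 to 5.87). *Ly96*, which encodes MD-2, the subunit of the complex that binds the lipid, had 15.9 per kilobase, 1.65 times *Tlr4* (1.37 to 1.96). *Cd14* was thus the most abundant of the 3 transcripts of this complex, at 3.19 times *Ly96* (2.70 to 3.81). The annotated exons of *Tlr4* sum to 5556 bases, and without scaling by length *Cd14* was 1.64 times *Tlr4* and *Ly96* 0.303 times. *Cd180*, a Tlr4 homologue, and *Ly86*, the MD-1 subunit it binds, stood at 26.6 and 93.5 per kilobase, and *Lbp* and *Cd36*, both lipid-binding proteins that aid these receptors, at 12.4 and 6.52.

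The endosomal receptors were led by *Tlr3*, which recognises double-stranded RNA. *Tlr3* (ENSMUSG00000031639.12, chr8:45395665-45411080, minus strand) had a mean of 558 normalised reads, from about 5612 reads, and 107 per kilobase (104 to 110). It had the highest level of the 10 genes, at percentile 59.8 and 1.69 times the median gene. An opposite-strand gene model, Gm45542, covers 381 of its 5207 exon bases (7.32%). That model was not among the genes listed, so it has no level here. The effect of the overlap on the *Tlr3* level was not tested.

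*Tlr7*, *Tlr9* and *Tlr13* followed at 24.0 (22.6 to 25.6), 19.0 (17.5 to 20.5) and 18.4 (17.2 to 19.8) per kilobase, with means of 98.2, 65.9 and 79.4 normalised reads. *Tlr7* recognises single-stranded RNA, *Tlr9* unmethylated CpG DNA and *Tlr13*, a receptor that humans lack, a sequence of bacterial ribosomal RNA. *Tlr7* (ENSMUSG00000044583.13, chrX:167304929-167330558, minus strand) and *Tlr13* (ENSMUSG00000033777.4, chrX:106143204-106160493, plus strand) are both X-linked, and *Tlr9* (ENSMUSG00000045322.10) is at chr9:106222598-106226883 on the plus strand. Per kilobase, *Tlr3* was 4.45 times *Tlr7* (4.16 to 4.77), 5.65 times *Tlr9* (5.21 to 6.13) and 5.81 times *Tlr13* (5.39 to 6.26). *Tlr9* and *Tlr13* were not separated by counting error, with a ratio of 1.03 (0.926 to 1.14).

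Summed per kilobase, the 4 endosomal receptors came to 169 and the 4 surface receptors to 67.2, a ratio of 2.51. *Tlr3* alone made up 45.4% of the sum of the 8 receptors and *Tlr2* 19.8%, while *Tlr7*, *Tlr9* and *Tlr13* gave 10.2%, 8.04% and 7.82%. *Tlr4*, *Tlr1* and *Tlr6* contributed 4.10%, 3.18% and 1.39%. Without *Tlr3* the endosomal sum was 61.4, 0.914 times that of the surface receptors, and without scaling by length it was 1.05 times theirs.

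*Myd88*, the adaptor of all these receptors except Tlr3, lies on the minus strand of chromosome 9 (ENSMUSG00000032508.8, chr9:119335934-119341411). It had a mean of 192 normalised reads and 74.6 per kilobase (71.3 to 78.0), at percentile 52.9. That was 1.59 times *Tlr2* (1.49 to 1.71), and 0.580 times the sum of the 7 receptors among the members that use it. Per kilobase of coding sequence, of which *Myd88* has 888 bases among 2576 exon bases, the same ratios were 3.61 and 1.23. The neighbouring gene *Acaa1a*, of peroxisomal fatty acid breakdown, overlaps 290 of its exon bases (11.3%) on the opposite strand and stood at 329 per kilobase. The libraries were stranded and the strand setting of the counting is not given in the sources used here. Whether the overlap raised, lowered or left unchanged the *Myd88* level was not tested.

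In the order per kilobase, 2 of the 9 neighbouring pairs were not separated by counting error. These were *Cd14* over *Tlr2* (ratio 1.09, 0.999 to 1.18) and *Tlr9* over *Tlr13*. The order was *Tlr3*, *Myd88*, *Cd14*, *Tlr2*, *Tlr7*, *Tlr9*, *Tlr13*, *Tlr4*, *Tlr1* and *Tlr6*, and the closest of the other pairs was *Tlr7* over *Tlr9*, at 1.27 (1.15 to 1.40). Whether any of these differences exceeds the spread between mice was not tested. The order also depends on the length used. With coding length in place of exon length, *Myd88* stood above *Tlr3* (216 against 205 per kilobase of coding sequence), and *Tlr13* and *Tlr4* stood above *Tlr9* (26.7 and 21.5 against 21.3). Without scaling by length, *Cd14* stood below *Tlr2* and *Tlr7*, with a mean of 88.1 normalised reads against 141 and 98.2.

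**Figure D2:**
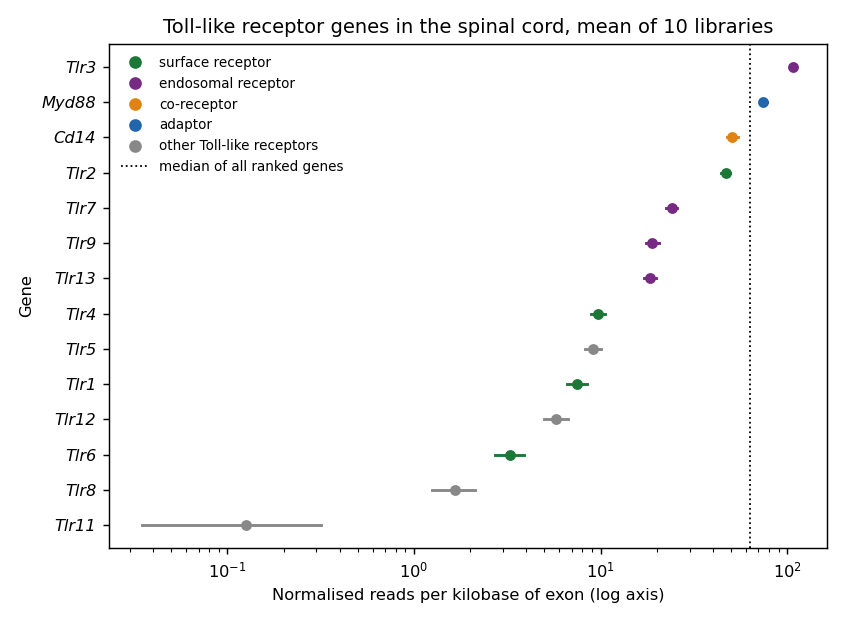
Level of the 12 Toll-like receptor genes, Cd14 and Myd88 in normalised reads per kilobase of exon (horizontal log axis), each a mean over all 10 libraries of both genotypes, with 95% counting intervals as bars. Tlr3 at 107 and Myd88 at 74.6 lie above the dotted median gene at 63.4, and Tlr6 at 3.27 is the lowest of the 10 members.

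The 4 other mouse Toll-like receptor genes were all below *Tlr4*. *Tlr5*, the flagellin receptor, had 9.13 normalised reads per kilobase (8.29 to 10.03), within the counting interval of *Tlr4*. *Tlr12*, which with Tlr11 recognises a parasite profilin, had 5.79 (4.98 to 6.69), between *Tlr1* and *Tlr6*. *Tlr8*, the X-linked neighbour of *Tlr7* at a distance of 40599 bases, had 1.65 (1.26 to 2.13), so that *Tlr7* was 14.6 times *Tlr8* (11.2 to 19.3). *Tlr11* had a mean of 0.409 normalised reads, which the depth factors resolve into 4 reads, each in a different library, of the 10 libraries together.

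Against all genes the receptors were low. Of the 10 members, 2 (*Tlr3* and *Myd88*) were above the median gene and 8 were below it, with *Cd14* (percentile 46.3) and *Tlr2* just under it. That count depends on the genes ranked against, since 4 members were above the median when genes at 0 were included and 0 when only genes with a mean of at least 10 were ranked. The lowest of the 8 microglial marker genes was *Aif1* at 72.2 per kilobase, and *Tlr3* and *Myd88* were the 2 members above it. The 4 markers of border macrophages, which line the meninges and vessels, ranged from 4.65 (*Lyve1*) to 14.7 (*Pf4*), within the range of the surface receptors. B cells also use *Tlr7* and *Tlr9*, and their marker genes ranged from 0.700 (*Ms4a1*) to 7.30 (*Cd79a*). The markers of neutrophils, which carry several of these receptors, ranged from 0.616 (*Ly6g*) to 118 (*S100a9*). The part of each cell type in the receptor levels was not tested.

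**Figure D3:**
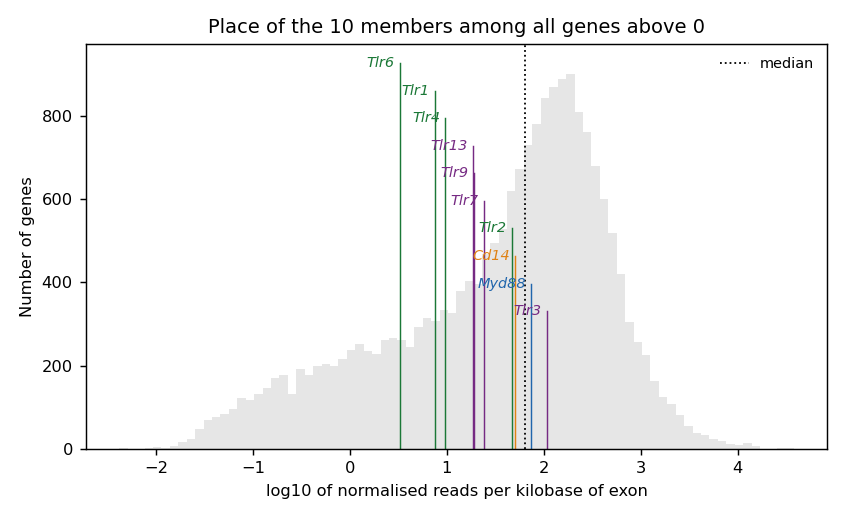
Number of genes (vertical axis) by level, as the log10 of normalised reads per kilobase of exon, for the 20399 genes above 0 that had an annotated length. A line stands at each of the 10 members and a dotted line at the median gene. Tlr6, Tlr1 and Tlr4 fall on the left shoulder, from percentile 20.4 to percentile 28.1, and Tlr3 and Myd88 fall to the right of the median.

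The genes that fold, move and cleave the endosomal receptors were above them per kilobase of exon, since each of the 3 trafficking and 4 protease genes exceeded *Tlr3*. *Unc93b1*, the chaperone that carries the endosomal receptors out of the endoplasmic reticulum, had 157 normalised reads per kilobase, 1.47 times *Tlr3* (1.41 to 1.53) and 0.935 times the 4 endosomal receptors together. Without scaling by length it was 0.856 times *Tlr3*. The chaperones *Hsp90b1* (gp96) and *Cnpy3*, which fold Toll-like receptors and serve other proteins too, had 2393 and 505. The lysosomal proteases that cleave the endosomal receptors were higher still than *Unc93b1*, from 412 for *Ctsl* to 3093 for *Ctsb*.

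Of the other TIR adaptors, *Ticam1* (TRIF), which Tlr3 uses in place of Myd88, had 70.0 per kilobase. That was 0.653 times *Tlr3* (0.621 to 0.687), and *Myd88* was 1.07 times *Ticam1* (1.00 to 1.13). *Tirap*, the bridge from Tlr2 and Tlr4 to Myd88, had 38.2, and *Ticam2*, the bridge from Tlr4 to Ticam1, had 3.83, below *Tlr4* per kilobase of exon and above it with coding length (*Tlr4* over *Ticam2* 2.53 and 0.674). *Sarm1*, the TIR-domain NAD hydrolase of axons, was the highest of the group at 135, 1.81 times *Myd88* (1.72 to 1.90).

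Downstream of the adaptors, 11 of 14 kinase and ubiquitin ligase genes were above the median gene, from *Ikbke* at 8.68 to *Traf3* at 334 per kilobase. *Irak4*, the kinase that Myd88 recruits first, was among the 3 below it, and *Myd88* was 3.83 times *Irak4* (3.55 to 4.15). Transcription factors of the pathway had a median of 83.7, with *Rela* highest (256) and *Irf7* lowest (24.8), and 3 of 6 were above the median gene. Negative regulators ranged from *Tnfaip3* at 14.8 to *Tollip* at 705, again with 3 of 6 above it. The 6 cytokine genes that these receptors induce were all below it, with a median of 2.04, *Cxcl10* highest at 11.1 and *Ifnb1*, with 1 read in all libraries together, lowest. Of all 52 pathway genes beside the 10 members, 27 were above the median gene, 23 above *Tlr3* and 6 below *Tlr6*.

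**Figure D4:**
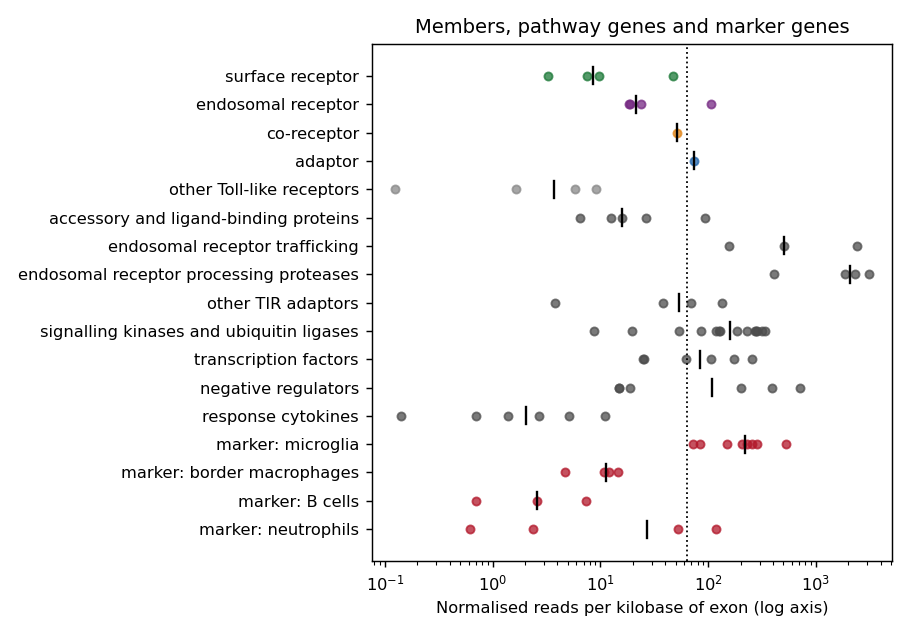
Level in normalised reads per kilobase of exon (horizontal log axis) of the members by role, of 9 lists of pathway genes and of 4 lists of marker genes, 1 point per gene with a black bar at the median of each list and a dotted line at the median of all ranked genes. Surface receptors have a median of 8.59 and endosomal receptors one of 21.5, against 2085 for the processing proteases and 158 for the kinases and ubiquitin ligases.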

How the data were processed

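The authors filtered reads with Fastp, aligned them to mm10 by HISAT2 2.1.0 and used featureCounts 2.0.2 to count reads with a unique position (versions from the submitters' processing notes). The gene annotation and strand setting are not given in the sources used here. The authors deposited 1 table of DESeq2 output. Its base mean, a signal averaged by the authors over all 10 libraries from counts divided by size factors, was used. Its 5 other columns of values (log2 fold change, standard error, Wald statistic, p-value and adjusted p-value of the authors' comparison) were not used, so no comparison between genotypes was made and no test was run. No column holds values of single samples. Deposited symbols were matched to GENCODE M21 (GRCm38, the build that mm10 denotes), 24355 of 25232 (96.5%), and levels were divided by summed exon length.

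Size factors were read from 716 genes whose base mean took one of the 10 lowest values, as 1 read in 1 library gives, and were assigned to no sample. Counting intervals are Poisson intervals on the base mean, and ratios use exact Clopper-Pearson intervals. On simulated Poisson counts with the levels of the real genes, the 10 size factors were recovered, and 95.4% of intervals over 18522 genes held the true level. The simulation had no spread between mice or genotypes, so it checks the calculation and not the coverage in these libraries. Coding sequences and 100-base windows came from GENCODE transcripts. The planned alignment of proteins was replaced by one of coding sequences. All members, all other Toll-like receptors, and the highest and lowest gene of each list could be named. One marker gene is not reported here. Other genes were named after their values were seen. Members and lists were chosen with earlier results of these data known. Alternatives were other lengths, other genes to rank against, equal size factors and local alignment. Python 3.11.15, numpy 2.4.6, pandas 2.3.3, scipy 1.17.1, biopython 1.88 and matplotlib 3.10.9 were used.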

Additional observations from a re-analysis of the deposited data

How the results depend on the processing

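The number of members above the median gene was 2, and was 1 with the longest transcript as length, 0 with coding length, 1 without scaling by length, 0 against genes with a mean of at least 10 and 4 against all listed genes. *Tlr3* over *Tlr6* was 32.8, and was 40.8 with coding length and 45.8 without scaling. The endosomal over surface ratio was 2.51, and was 2.66 with the longest transcript, 2.93 with coding length and 3.45 without scaling. *Tlr6* was the lowest member under every length, and *Tlr3* the highest under all but coding length. Of 38 ratios between genes or sums, 12 turned direction under at least 1 length and 25 moved by over 1.5 times under at least 1. With the longest transcript, *Tlr9* over *Tlr13* turned to 0.970 and *Unc93b1* over the endosomal sum to 1.11. With coding length, *Tlr9* over *Tlr13* turned to 0.798, *Tlr9* over *Tlr4* to 0.992 and *Tlr3* over *Myd88* to 0.949. The same length turned *Tlr4* over *Ticam2* to 0.674 and *Myd88* over the 7 member receptors that use it to 1.23. Without scaling, *Tlr9* over *Tlr13* turned to 0.831, *Cd14* over *Tlr2* to 0.625, *Cd14* over *Tlr7* to 0.897, *Ly96* over *Tlr4* to 0.303, *Myd88* over *Ticam1* to 0.918, *Unc93b1* over *Tlr3* to 0.856 and the endosomal sum without *Tlr3* over the surface sum to 1.05. The members above the lowest microglial marker were 2, 1 with the longest transcript or coding length, and 3 without scaling by length. The levels of all 10 members were higher per kilobase of coding length, which is shorter by construction. With all size factors set to 1, the counting intervals of all 10 members changed in width by less than 5%. Local alignment gave *Tlr1* and *Tlr6* an identity of 89.0% over 1327 columns. No replicate could be left out, and no paired analysis was possible because the levels used are means over all libraries and no test was made. Depth limits *Ifnb1* (1 read) and *Tlr11* (4 reads).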
